A study of Mus musculus with 16 samples.

Results

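The genes described are 7 transcription factors of the endoderm lineage: Foxa2, Foxa3, Hnf4a, Pdx1, Sox17, Gata4 and Gata5. They were chosen by name, and every measured CpG from 2 kb upstream of the annotated start to 2 kb past the annotated end of each gene (GENCODE M21, mm10) was taken, which gave 626 CpGs of the 1203687 in the series and 7 genes of the 15811 protein-coding genes with at least 1 measured CpG. The data are methylation calls from target capture bisulfite sequencing of immortalised mouse embryonic fibroblasts from C57BL/6J embryos at E13.5. The lines carry no engineered allele and received no treatment, and immortalisation was by serial passage through crisis. The MEF-1 and MEF-2 parental lines came from sibling embryos, the first male and the second female, and from each parental line 7 single sorted cells were grown into clonal lines, so that the 16 libraries are 1 parental and 7 clonal libraries per family. Each clonal line is 1 clone, each family is 1 embryo, and family, embryo and sex cannot be told apart.

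The endoderm is the embryonic layer that forms the lining of the gut and the liver, pancreas and lung. Foxa2 and Foxa3 are forkhead pioneer factors that open chromatin at endodermal and hepatic genes, Sox17 and Gata4 act when the endoderm is specified, Gata5 is a close relative of Gata4, Hnf4a is a nuclear receptor that drives the hepatocyte programme, and Pdx1 is needed for the pancreas. Genes of this kind are held silent in other tissues, where their dense CpG islands are typically kept free of methylation by Polycomb proteins. Fibroblasts are mesodermal derivatives, and only methylation is reported here, so nothing below is a measure of expression.

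The starts of marker genes were read beside the labelled cell type. In all 4 fibroblast markers with a measured start region, Fn1, Vim, Pdgfra and Twist2, the mean level of the clonal lines lay between 1.06% and 4.23% in each family, and the other 10 genes of that list had no region of at least 3 CpGs or lay on chromosomes that are not in the table. Low starts are common and do not mark a cell type, since the medians over 12544 start regions of all genes were 2.70% and 2.36% and 8759 of them were under 10% in both families. The start regions of 6 epithelial, blood and endothelial markers that could be read had a median level of 52.2% over the MEF-1 and 35.7% over the MEF-2 clonal lines, with none under 10% in both families. Of these 5 were called higher in MEF-1, where 17.9% of all start regions were, namely Krt18 by 17.6 points, Krt8 by 16.1, Cldn4 by 15.4, Pecam1 by 14.1 and Epcam by 12.6, and Cdh1 was not called. Markers of other cell types thus moved in the direction that most called regions of the endoderm genes took, and their part in those results was not tested. A level here is the share of reads that were methylated at a CpG, and a region's level is the mean over its CpGs. The CpGs of the 7 genes were read a median of 26 times per library, against 32 over the whole table, and each was read at least 10 times in every library.

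Sequences from regions with large family differences are shown first, from the mm10 genome and on the strand of the gene, 5′ to 3′. Capitals mark the CG of each CpG whose level differed between the clonal lines of both families at an adjusted p under 0.05, as described below. Of all 1203687 CpGs, 20.2% were called in this way, 11.6% higher in MEF-1 and 8.53% higher in MEF-2. Each window is the stretch of up to 300 bases, free of non-coding exon parts, with the most called CpGs of its region. The counts of the windows were thus selected by the calls and cannot be set beside these shares. The whole regions had 8 of 18 CpGs called in Foxa3 island 2 and 6 of 9 in the Foxa2 upstream flank. In Gata4 island 7 it was 15 of 24, and in Gata4 island 4 it was 6 of 11. Islands were computed from the genome sequence as stretches of at least 200 bp with 50% or more G and C and an observed to expected CpG ratio of 0.6 or more, and they are numbered along each gene from its upstream end. The first window is from intron 1 of Foxa3 (chr7:19022882-19023181), where 7 of 14 measured CpGs were called, all of them higher in MEF-1.
Foxa3 island 2: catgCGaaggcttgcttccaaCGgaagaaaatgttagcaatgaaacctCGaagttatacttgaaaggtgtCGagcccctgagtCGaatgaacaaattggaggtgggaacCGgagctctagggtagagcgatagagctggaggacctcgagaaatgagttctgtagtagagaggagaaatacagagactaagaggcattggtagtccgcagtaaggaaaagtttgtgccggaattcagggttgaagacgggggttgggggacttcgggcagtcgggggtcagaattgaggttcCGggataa
The Foxa2 upstream window (chr2:148047317-148047616) holds few CpGs, and each of the 4 measured was called, 3 higher in MEF-1 and 1 higher in MEF-2.
Foxa2 upstream: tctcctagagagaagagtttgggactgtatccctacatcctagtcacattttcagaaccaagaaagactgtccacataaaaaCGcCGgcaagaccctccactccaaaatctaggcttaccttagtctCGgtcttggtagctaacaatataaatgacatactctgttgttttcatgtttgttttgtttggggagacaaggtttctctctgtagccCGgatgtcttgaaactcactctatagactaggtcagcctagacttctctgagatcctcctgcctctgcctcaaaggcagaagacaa
The Gata4 intronic window just past the main starts (chr14:63244101-63244400) held 11 called CpGs of 13 measured, all higher in MEF-1.
Gata4 island 7: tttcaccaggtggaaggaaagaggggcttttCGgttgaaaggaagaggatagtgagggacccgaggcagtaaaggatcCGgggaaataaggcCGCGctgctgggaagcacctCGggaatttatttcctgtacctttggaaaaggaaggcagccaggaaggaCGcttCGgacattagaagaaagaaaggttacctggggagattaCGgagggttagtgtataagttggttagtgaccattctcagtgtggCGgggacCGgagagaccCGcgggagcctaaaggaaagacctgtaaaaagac
A window in the intron of the longer Gata4 transcripts (chr14:63251562-63251861) is given for contrast, since 5 of its 6 called CpGs were higher in MEF-2.
Gata4 island 4: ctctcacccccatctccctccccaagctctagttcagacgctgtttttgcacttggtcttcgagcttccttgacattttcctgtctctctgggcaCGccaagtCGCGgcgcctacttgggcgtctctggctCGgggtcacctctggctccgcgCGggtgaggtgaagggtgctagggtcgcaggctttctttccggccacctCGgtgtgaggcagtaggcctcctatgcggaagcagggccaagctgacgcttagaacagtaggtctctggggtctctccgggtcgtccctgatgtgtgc
The Hnf4a island in the intron past the start of transcripts Hnf4a-201 and Hnf4a-202 (chr2:163547759-163547988) had the highest level of the 31 regions in both families, with 2 of 10 CpGs called.
Hnf4a island 2: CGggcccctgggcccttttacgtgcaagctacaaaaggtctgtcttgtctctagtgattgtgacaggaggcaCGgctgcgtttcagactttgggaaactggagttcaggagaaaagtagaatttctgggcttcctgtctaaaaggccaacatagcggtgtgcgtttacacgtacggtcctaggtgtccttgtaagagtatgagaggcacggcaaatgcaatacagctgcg

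The 7 genes were far from uniformly hypomethylated. Over their 626 CpGs the clonal lines averaged 34.1% ± 0.921 (SD, n = 7) in MEF-1 and 26.3% ± 1.17 (SD, n = 7) in MEF-2, against 44.0% and 42.4% over the whole table. The parental libraries stood at 33.1% and 26.5%. Intermediately methylated CpGs, those from 10% to under 90%, made up 47.3% of the CpGs of these genes in the MEF-1 parental library and 56.1% in the MEF-2 parental library, where the whole table held 31.2% and 35.7%. Highly methylated CpGs, at 90% or more, were correspondingly few, 13.3% and 5.43% against 28.5% and 24.3%. The fidelity score, the share of the 14 clonal lines at 0–10%, 40–60% or 90–100%, averaged 0.753 over the CpGs of the 7 genes and 0.833 over all CpGs, and 12.9% of the CpGs of these genes had the full score of 1 where 37.0% of all CpGs did.

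The genes differed among themselves. Hnf4a was the most methylated, at 61.0% ± 1.57 in MEF-1 and 49.2% ± 1.71 in MEF-2 clonal lines (SD, n = 7), and it held 20 of the 30 CpGs that were at 90% or more in both families. Pdx1 was the least methylated, at 13.0% ± 2.73 and 14.1% ± 1.70 (SD, n = 7), and 33 of its 69 CpGs were under 10% in both families. Sox17 stood at 19% and 20.4%, Gata5 at 27.4% and 27.0%, Gata4 at 30.1% and 21.3%, Foxa3 at 41.3% and 26.2%, and Foxa2 at 41.7% and 22.6%. In Sox17, Gata5 and Pdx1 the family means lay within 1.5 points of each other, whereas in Foxa2, Foxa3, Hnf4a and Gata4 the MEF-1 mean was higher. Capture reached these genes unequally, from 5.6% of the CpGs of Gata5 to 33.7% of those of Sox17, so that Gata5 rests on 14 CpGs.

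**Figure D1:**
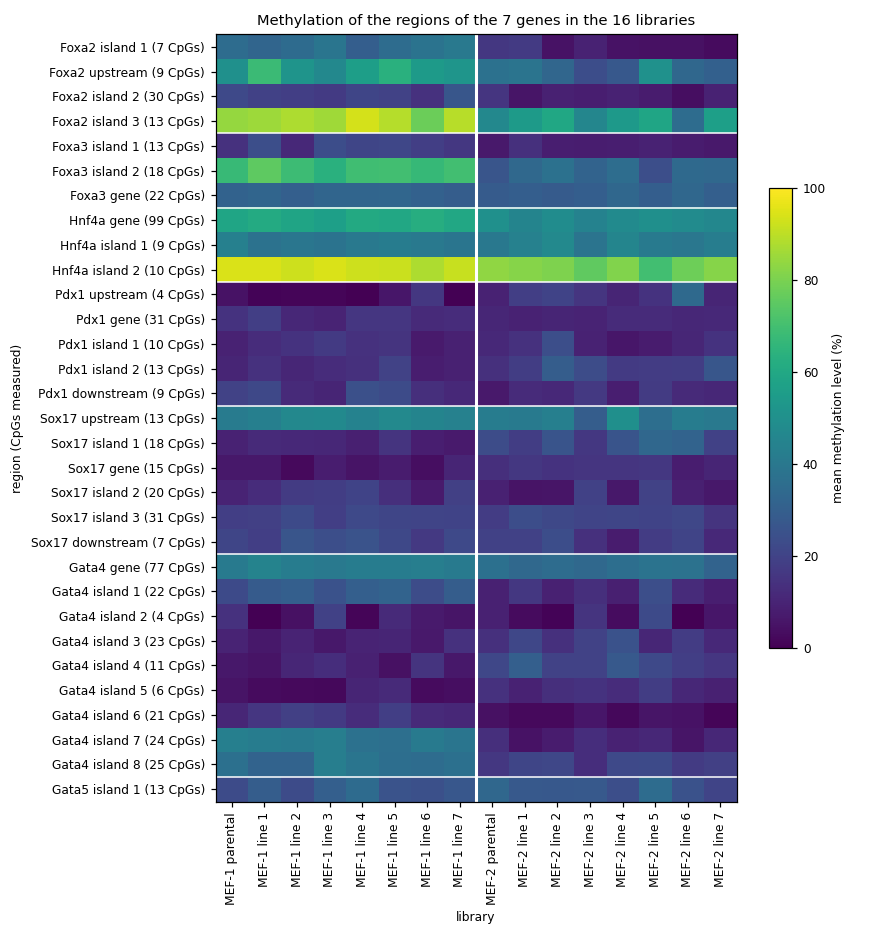
Mean methylation level (%, colour) of the 31 regions of the 7 genes, in rows from the upstream end of each gene, in the 16 libraries, in columns with the parental library of each family first. Foxa3 island 2, Foxa2 island 3 and the Gata4 islands 7 and 8 are brighter in all MEF-1 libraries than in all MEF-2 libraries, and Hnf4a island 2 is the brightest row in both families.

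The islands at transcript starts came next. An island was counted as a start island when it lay within 500 bp of a protein-coding transcript start, and 8 islands of 6 genes met this, while no island of Hnf4a did. Not every start island was measured at a promoter. All measured CpGs of Foxa3 island 2, Pdx1 island 1 and Sox17 island 2, and 12 of 13 of Gata5 island 1, lie in introns or coding exons. Sox17 island 2 was counted for the start of the short transcript Sox17-204. Across 10856 start islands of all protein-coding genes the median was 2.30% for MEF-1 clonal lines and 1.94% for MEF-2 clonal lines, and 17.0% and 16.9% of them exceeded 10%. All 8 start islands of the endoderm genes lay above these medians in both families. The lowest value was 3.61% ± 1.87, for Gata4 island 6 in MEF-2, and the highest was 69.1% ± 3.53, for Foxa3 island 2 in MEF-1 (SD, n = 7).

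Foxa3, which acts with its relatives on liver genes, had the most methylated start island, though under the stricter definition given below this was not an island. Island 2 (chr7:19022777-19023811) spans the start, but all 18 of its measured CpGs lie in intron 1, and no CpG was measured from 337 bp upstream to 255 bp past the start. It stood at 67.4% in the MEF-1 parental library and between 63.6% and 75.3% in the MEF-1 clonal lines, with a median of 69.4%. It was 26.4% in the MEF-2 parental library and its clonal lines ran from 24.1% to 37.5%, with a median of 33.7%. Every MEF-1 library was therefore higher than every MEF-2 library, and the clonal means differed by 36.1 points (SE 2.01), with an adjusted p of 1.05e-08 in limma. In this and the comparisons that follow, limma was fitted to 45600 regions of all protein-coding genes, and 46.6% of them passed an adjusted p of 0.05. The exact two-sided permutation test of 7 against 7 lines gave p = 0.000583, the smallest this design can give.

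At single CpGs the Foxa3 intron held a difference of all-or-none kind, and 8 of the 18 CpGs of island 2 were called, where 20.2% of all CpGs were. The CpG at chr7:19022888, 650 bp past the start, was at 96.8% in the MEF-1 parental library (95% Wilson interval 83.8% to 99.4%, 31 reads) and 6.25% in the MEF-2 parental library (1.73% to 20.1%, 32 reads). The MEF-1 clonal lines were all at 96.8% to 100% and the MEF-2 clonal lines at 4.35% to 18.2%, and the quasi-binomial test gave an adjusted p of 2.14e-07. These intervals cover counting error only, and reads are not shown to be separate molecules. The CpG at chr7:19022601 in the same intron was at 89.5% ± 18.9 in MEF-1 and 3.53% ± 4.06 in MEF-2, with MEF-1 line 5 at 47.6% and the other MEF-1 lines at 90% or more. Upstream, island 1 (chr7:19023875-19025179) is shared with the start of Sympk, a gene for a scaffold protein of mRNA 3′ end processing on the opposite strand, and stood at 19.4% ± 4.48 against 9.0% ± 2.32. That difference of 10.4 points (SE 1.83) passed limma, at an adjusted p of 0.000326, but MEF-1 line 2 at 11.5% lay inside the MEF-2 range, which reached 13.9% in line 1. The rest of the gene, 22 CpGs outside islands, was at 31.6% ± 1.40 and 30.8% ± 1.87 and was not called, though 3 of its CpGs were called higher in MEF-1 and 5 higher in MEF-2. Its direction depended on the processing, at -4.84 points with pooled reads and -13.52 with at least 20 reads but 4.80 with at least 5 reads, all 3 past the threshold. Under the stricter island definition island 2 was not an island, and its 18 CpGs counted to the part outside islands. That part then held 40 CpGs in place of 22, a different set, and differed by 16.7 points. Island 1 lost its call with at least 20 reads, and under the stricter definition, on 7 CpGs, it stood at -2.90 points (adjusted p 0.121 in limma). Relative coverage within 5 Mb of Foxa3 was 0.809 in MEF-1 line 1, 0.819 in line 3, 0.842 in line 7 and 0.897 in line 6, and its part in these values was not tested.

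**Figure D2:**
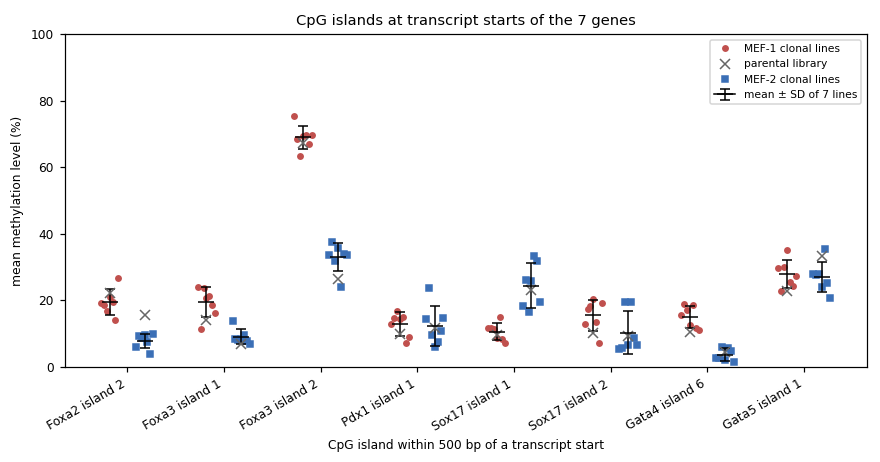
Mean methylation level (%) of the 8 CpG islands within 500 bp of a transcript start, with 1 point for each clonal line, bars for the mean ± SD of the 7 lines of a family and crosses for the parental library. The families are apart without overlap in Foxa2 island 2, Foxa3 island 2, Sox17 island 1 and Gata4 island 6, with Sox17 island 1 alone among these higher in MEF-2.

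Foxa2, which is required for the node, the notochord and the definitive endoderm, was more methylated in MEF-1 at every region that could be read. Its start island, island 2 (chr2:148045161-148047127), was between 14.1% and 26.6% in MEF-1 clonal lines, median 19.2%, and between 3.78% and 9.74% in MEF-2 clonal lines, median 8.49%. The parental libraries stood closer together, at 22.2% and 15.5%, and the MEF-2 parental library exceeded every one of its clonal lines. The clonal difference was 11.7 points (SE 1.62, adjusted p 4.24e-05 in limma). Of its 30 CpGs 9 were called, where 20.2% of all CpGs were. Of these 8 were higher in MEF-1, against 11.6% of all CpGs, such as that at chr2:148046931 with 59.2% ± 10.8 against 8.67% ± 6.38, while the CpG at chr2:148047076, 107 bp upstream of the start, was the 1 that went the other way with 5.43% ± 4.23 against 52.4% ± 16.5.

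The coding island of Foxa2, island 3, had the highest levels of the gene. It was between 77.6% and 93.5% in MEF-1 clonal lines and between 35.5% and 59.7% in MEF-2 clonal lines, with the parental libraries at 84.1% and 46.5%. The groups did not overlap, and the difference was 34.8 points (SE 3.55, adjusted p 2.75e-06 in limma). Upstream, island 1 (chr2:148048488-148049224, with 2 of its 7 CpGs inside the 2 kb flank) was at 35.8% ± 3.63 against 6.91% ± 4.88, and the flank outside islands was at 56.1% ± 7.29 against 34.0% ± 8.73. The size of both differences depended on the reads, since the flank moved from 22.1 points to 42.7 with pooled reads and 63.8 with at least 20 reads, and island 1 from 28.9 to 56.1 points with at least 20 reads. Within the flank sat the most divergent CpG of the gene, at chr2:148047533, where MEF-1 lines stood at 94.1% to 100% and MEF-2 lines at 1.03% to 6.56% (adjusted p 7.82e-09 in the quasi-binomial test). Its neighbour 3 bp away at chr2:148047530 was as low in MEF-2 but varied in MEF-1, at 50.0% in line 6, 65.2% in line 4 and 86.5% to 100% in the others. The parental library had 97.4% at the first CpG and 59.5% at the second (95% Wilson intervals 91.1% to 99.3% and 48.5% to 69.6%, 78 and 79 reads). Relative coverage around Foxa2 was 0.777 in MEF-2 line 3, and leaving out any single line kept the difference of island 3 between 32.1 and 36.4 points.

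**Figure D3:**
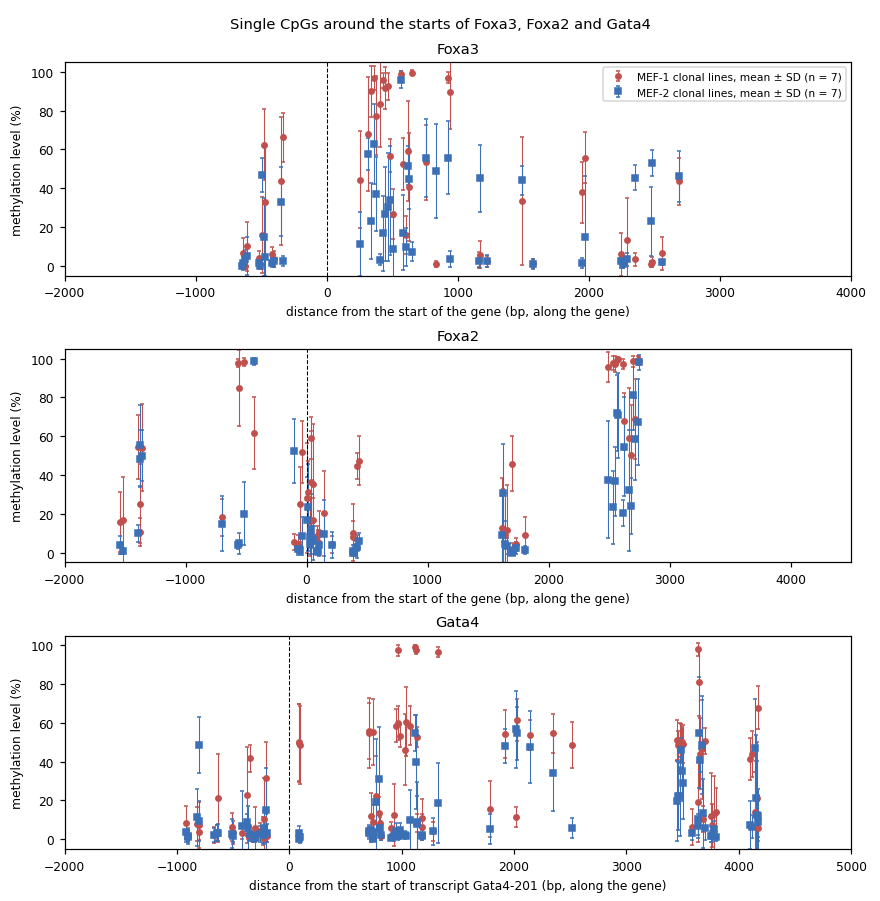
Methylation level (%) of single CpGs against the distance in bp from the start of Foxa3, Foxa2 and the transcript Gata4-201, as mean ± SD of the 7 clonal lines of each family. Each gene holds at least 1 CpG near 100% in MEF-1 and near 0% in MEF-2, such as that of Gata4 at 97.3% against 1.67%.

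Gata4, a zinc finger factor of the endoderm and the heart, held the largest number of CpGs, 213, in 9 regions. Its main starts lie in island 6 (chr14:63244984-63245943), which averaged 15.0% ± 3.26 over MEF-1 lines and 3.61% ± 1.87 over MEF-2 lines, without overlap, a difference of 11.4 points (SE 1.37, adjusted p 1.22e-05 in limma). The 3 CpGs in the non-coding exon 65 to 70 bp past the start were at 48.4% to 50.1% in the MEF-1 clonal mean and 0% to 3.00% in MEF-2, and the MEF-1 parental library, on 10 reads, stood at 20% to 30% there. Island 7 (chr14:63244088-63244669), in the intron just past it, separated the families most. It was between 36.6% and 42.9% in MEF-1 and between 5.04% and 13.3% in MEF-2 clonal lines, with the parental libraries at 43.1% and 13.4%, and the difference was 30.9 points (SE 1.43, adjusted p 1.99e-09). Island 8, over exonic and intronic sequence, was 16.9 points higher in MEF-1 and island 1, in the intron of the longer transcripts, 15.3 points higher. The 77 intronic CpGs outside islands averaged 42.1% ± 1.33 and 35.3% ± 2.25, without overlap, and island 2, on 4 CpGs, 7.19% ± 6.61 and 7.30% ± 8.36, which was not called.

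Within the intron between the distal and the main starts of Gata4, where islands 1 and 2 also lie, only islands 3 to 5 went the other way. Islands 3, 4 and 5 (chr14:63255194-63256287, chr14:63251464-63251903 and chr14:63246071-63246730) were at 9.12%, 9.12% and 5.20% in MEF-1 and at 17.2%, 22.0% and 12.7% in MEF-2, with adjusted p of 0.00777, 0.000444 and 0.00468 in limma. Of these, the lines of the families were apart without overlap in island 4 alone. With CpGs down to 5 reads admitted, island 3 lost its call at -3.63 points, island 4 shrank from -12.87 to -5.75 (adjusted p 0.0484 in limma) and island 5 turned to 8.92 points higher in MEF-1. Island 3 also lost its call with the stricter island definition, at -3.67. Of the regions described before, island 6 fell to 7.06 points with at least 5 reads and the CpGs outside islands from 6.78 to 4.45 points with at least 20 reads, both still called. At chr14:63244307 in island 7 the MEF-1 clonal lines were at 92.1% to 100% and the MEF-2 clonal lines at 0% to 3.85%, the widest separation among the CpGs of the 7 genes, 95.7 points. Relative coverage around Gata4 was 0.822 in MEF-1 line 2 and 0.788 in MEF-2 line 3, and its part in these values was not tested.

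Sox17, an HMG box factor of the definitive endoderm and the endothelium, had a start island that was more methylated in MEF-2. Island 1 (chr1:4496796-4497707), which overlaps the non-coding transcript Gm37587 on the opposite strand, was between 7.12% and 15.0% in MEF-1 and between 16.4% and 33.3% in MEF-2 clonal lines, with the parental libraries at 9.44% and 23.2%. The groups did not overlap, and MEF-2 was higher by 13.9 points, the difference MEF-1 minus MEF-2 being -13.86 (SE 2.58, adjusted p 0.000522 in limma). The 15 CpGs of the gene outside islands were lower in MEF-1 too, at 6.26% ± 2.70 against 13.7% ± 3.31, and this difference shrank from -7.47 to -4.40 points with at least 5 reads. The most divergent CpG of the island, at chr1:4497118, was at 5.80% ± 8.31 and 59.7% ± 28.6. Farther upstream, at chr1:4498651, the order was the opposite, with 88.6% to 100% in MEF-1 and 5.88% to 59.5% in MEF-2. Island 3, over the end of the gene, averaged 20.6% ± 1.40 and 20.4% ± 2.66, the limma difference being 0.14 points (SE 1.11). Of its 31 CpGs 5 were called, a share below the 20.2% of all CpGs. Among these, 3 were higher in MEF-1, such as chr1:4492602 at 55% ± 14.6 against 3.38% ± 5.37. The other 2 were higher in MEF-2, such as chr1:4491769 at 9.81% ± 7.68 against 60% ± 28.1. The shares called in these directions over all CpGs were 11.6% and 8.53%. The flanks outside islands were not called, with 45.4% ± 1.67 against 40.2% ± 6.20 upstream and 22.1% ± 3.59 against 16.4% ± 5.59 downstream. Both calls depended on the reads and lines used. The upstream flank passed with at least 5 reads (6.70 points, adjusted p 0.0486 in limma) and stood at 0.40 points with at least 20, and the downstream flank passed with pooled reads (8.56 points, 0.0117). The upstream adjusted p of 0.0858 became 0.0114 without MEF-2 line 4, and the downstream one of 0.0632 became 0.0366, 0.0248 and 0.0489 without MEF-1 line 6, MEF-2 line 2 and MEF-2 line 6 (limma).

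Island 2 of Sox17 (chr1:4493066-4493805), in a coding exon, varied between the lines of each family. In MEF-2 it stood at 19.4% in line 3 and 19.6% in line 5 but between 5.38% and 8.62% in the other 5 lines, with the parental library at 9.22%. In MEF-1 the lines were spread from 7.18% in line 6 to 20.3% in line 4, around a parental level of 10.0%. The family difference of 5.24 points (SE 2.84) did not pass limma, at an adjusted p of 0.152, and was 1.09 points with at least 5 reads. At chr1:4493163 MEF-2 lines 3 and 5 were both high, at 75% and 56%, whereas at chr1:4493198 line 5 stood at 50% and line 3 at 0%. Of the 20 CpGs 4 were called between the families, near the background of 20.2%, 3 higher in MEF-1, such as chr1:4493201 at 55.5% ± 16.4 against 3.39% ± 4.06, and 1 higher in MEF-2, chr1:4493121 at 12.9% ± 10.1 against 58.9% ± 18.1. Relative coverage around Sox17 was 0.857 in MEF-1 line 5 and 0.891 in MEF-1 line 7, and its part in these values was not tested.

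Pdx1, the homeodomain factor of the pancreas and the beta cell, had low levels on average. Its start island (chr5:147270138-147270628), in the coding part of exon 1, averaged 12.9% ± 3.5 over MEF-1 lines and 12.4% ± 6.00 over MEF-2 lines, with a limma difference of 0.50 points (SE 2.50). Island 2 in the intron, whose upstream end overlaps the antisense gene Plut, was at 12.6% ± 3.85 and 21.6% ± 5.06, a difference that passed limma at an adjusted p of 0.00529. The upstream flank, on 4 CpGs, was between 0% and 16.1% in MEF-1 and between 10.4% and 34.3% in MEF-2, where line 6 was the highest. The gene outside islands, at 13.7% ± 3.04 and 10.9% ± 1.08, and the downstream flank, at 16.7% ± 6.13 and 12.8% ± 3.20, were not called, although the gene passed limma without MEF-1 line 2 (adjusted p 0.0477) or line 3 (0.0232). MEF-1 lines 1, 4 and 5 were the highest in the gene, at 15.8% to 18.5% against 9.96% to 12.7% in the other MEF-1 lines, and without them the gene difference fell from 2.80 to 0.57 points. It turned to -0.56 points with at least 20 reads. The downstream difference of 3.91 points passed with at least 5 reads (4.73, adjusted p 0.0477 in limma) and turned to -0.90 without MEF-1 lines 1, 4 and 5. The largest single differences went both ways, with 55.4% ± 7.14 against 0.68% ± 1.80 at chr5:147277609 downstream and 4.52% ± 4.97 against 58.7% ± 16.9 at chr5:147272357 in the intron. Relative coverage around Pdx1 was 1.31 in MEF-1 line 7 and 1.13 in MEF-1 line 6, and its part in these values was not tested.

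Hnf4a was read mostly in its gene body, with 99 of its 119 CpGs outside islands. That body was between 56.5% and 62.4% in MEF-1 and between 44.3% and 50.0% in MEF-2 clonal lines, without overlap, a difference of 12.6 points (SE 1.04, adjusted p 3.85e-07 in limma). Of the 99 CpGs, 36 were called, 27 higher in MEF-1 and 9 higher in MEF-2. Over all CpGs 11.6% and 8.53% were called in these directions, so that the share higher in MEF-2 was near the background. The largest difference within Hnf4a was among the CpGs higher in MEF-2, at chr2:163532303. The MEF-1 lines stood there at 0% to 9.09% and the MEF-2 lines at 93.0% to 100%. Island 2, shown above, was at 92.1% ± 2.29 and 78.4% ± 4.50, and the intronic island 1 (chr2:163534908-163535299) was at 39.6% ± 1.58 and 42.6% ± 3.13, which was not called (adjusted p 0.0718 in limma, but 0.0256 without MEF-2 line 3 and 0.0439 without MEF-2 line 6). The antisense gene Hnf4aos overlaps island 1 and the CpG at chr2:163532303. Hnf4a lies on chromosome 2 with Foxa2, and relative coverage around Hnf4a was 0.787 in MEF-2 line 3.

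Gata5, expressed in the gut and the endocardium, had 1 region, an island (chr2:180333620-180335275) in which 12 of 13 measured CpGs lie in an intron 940 to 1079 bp past the start. The MEF-1 lines averaged 27.9% ± 4.14 and the MEF-2 lines 26.9% ± 4.56, a limma difference of 0.91 points (SE 2.22), although 5 of its CpGs were called, 2 higher in MEF-1 and 3 higher in MEF-2, where 20.2% of all CpGs were called. At chr2:180333620 the MEF-1 lines were at 88.5% to 100%, the MEF-2 lines at 5.00% to 55.6%, and the parental libraries at 47.8% and 45.5%. Only 4 bp away, at chr2:180333624, the order was reversed, with 48.7% ± 11.8 against 88.0% ± 15.9. The level of the island thus held differences in both directions. Relative coverage around Gata5 was 0.775 in MEF-1 line 6 and 0.795 in MEF-2 line 3, and the island overlaps the antisense gene Gata5os.

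Counted over the 7 genes, 20 of 31 regions were called between the families, 64.5% against 46.6% of all regions tested. Of these, 13 were higher in MEF-1, where 27.6% of all regions were called in that direction, and 7 were higher in MEF-2, where 19% were. In 12 regions, or 38.7%, the 7 MEF-1 and 7 MEF-2 lines did not overlap, against 23.4% of all regions. The median absolute difference was 8.94 points, and over all regions it was 3.41 points. The parental libraries entered no family test but are not independent of it, since the clonal lines were grown from cells of the parental lines. They differed in the same direction in all 20 called regions. Of the 31 regions 5 were called and 20 or more points apart, where 7.23% of all regions were.

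**Figure D4:**
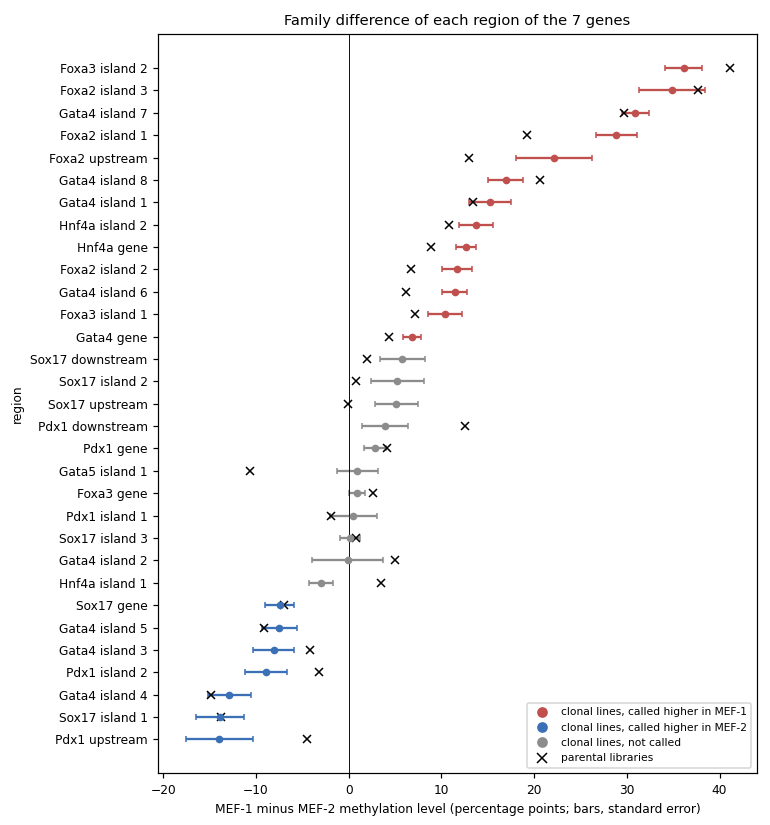
MEF-1 minus MEF-2 methylation level, in percentage points, of the 31 regions, as the difference of the clonal means with its standard error from limma and, as crosses, the difference of the parental libraries. The 13 regions called higher in MEF-1 reach 36.1 points at Foxa3 island 2, and the 7 called higher in MEF-2 reach -13.98 points at the Pdx1 upstream flank.

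Among single CpGs, 177 of 626 were called by the quasi-binomial test, 28.3% against 20.2% of all CpGs. Of these, 125 were higher in MEF-1 and 52 higher in MEF-2, where the shares over all CpGs were 11.6% and 8.53%. The called share ran from 20.3% in Pdx1 and 21.2% in Sox17 through 25.8% in Gata4, 32.8% in Hnf4a, 35.7% in Gata5 and 35.8% in Foxa3 to 42.6% in Foxa2. CpGs in islands and outside them were called about as often, with 91 of 336 and 86 of 290. A difference of 50 points or more was found at 58 called CpGs, 9.27% of those measured, where 4.34% of all CpGs had one. The parental libraries differed in the same direction at 119 of the 125 and at 50 of the 52 called CpGs, 95.2% and 96.2%, where the called CpGs of the whole table gave 94.5% and 96.6%. The levels of the 7 MEF-1 lines lay wholly above or below those of the 7 MEF-2 lines at 108 CpGs, 17.3% against 9.41% of all CpGs. At 4 CpGs all 7 lines of 1 family were at 80% or more and all 7 of the other at 20% or less, 0.639% against 0.256% of all CpGs, and these were the CpGs named above in Foxa2, Foxa3, Hnf4a and Gata4.

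Each clonal line was then compared with its own parental library. Such a difference holds both the state of the founding cell and changes during growth of the clone, which cannot be told apart. Fisher's exact test per CpG called 300 gains and 243 losses over the 14 lines. Of the gains, 100 fell in MEF-1 lines and 200 in MEF-2 lines, and of the losses 54 and 189. Over all CpGs and lines, 2.68% were called as gains and 2.33% as losses. The lines are given in turn, as the share of the 626 CpGs beside that of all CpGs. MEF-1 line 1 gained 8 (1.28% against 0.809%) and lost 0 (0% against 0.684%). In MEF-1 line 2, 18 were gained (2.88% against 2.64%) and 8 lost (1.28% against 2.89%). MEF-1 line 3 gained 21 (3.35% against 2.38%) and lost 13 (2.08% against 2.43%). The first line thus had few changes, and the next pair more. In MEF-1 line 4, 6 were gained (0.958% against 0.751%) and 5 lost (0.799% against 0.59%). MEF-1 line 5 gained 8 (1.28% against 0.93%) and lost 3 (0.479% against 0.609%). In MEF-1 line 6, 21 were gained (3.35% against 2.43%) and 16 lost (2.56% against 2.52%). MEF-1 line 7 gained 18 (2.88% against 2.37%) and lost 9 (1.44% against 2.16%). MEF-1 lines 1, 4 and 5 were the lines with the fewest gains, as they were over all CpGs. In MEF-2 line 1, 24 were gained (3.83% against 3.76%) and 25 lost (3.99% against 2.82%). MEF-2 line 2 gained 23 (3.67% against 3.53%) and lost 27 (4.31% against 2.5%). In MEF-2 line 3, 18 were gained (2.88% against 1.96%) and 23 lost (3.67% against 2.71%). These MEF-2 lines lost more CpGs than any MEF-1 line. Many of the losses were in 1 gene, since Hnf4a, with 119 of the 626 CpGs, held 11, 12 and 11 of them. Over all MEF-2 lines Hnf4a held 76 of the 189 losses. MEF-2 line 4 gained 28 (4.47% against 3.78%) and lost 18 (2.88% against 2.61%). In MEF-2 line 5, 42 were gained (6.71% against 4.26%) and 26 lost (4.15% against 3.12%). MEF-2 line 6 gained 38 (6.07% against 4.1%) and lost 41 (6.55% against 3.83%). In MEF-2 line 7, 27 were gained (4.31% against 3.81%) and 29 lost (4.63% against 3.17%). MEF-2 line 5 had the most gains and MEF-2 line 6 the most losses, as they did over all CpGs. The test is between 2 libraries and takes every read as a separate molecule.

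**Figure D5:**
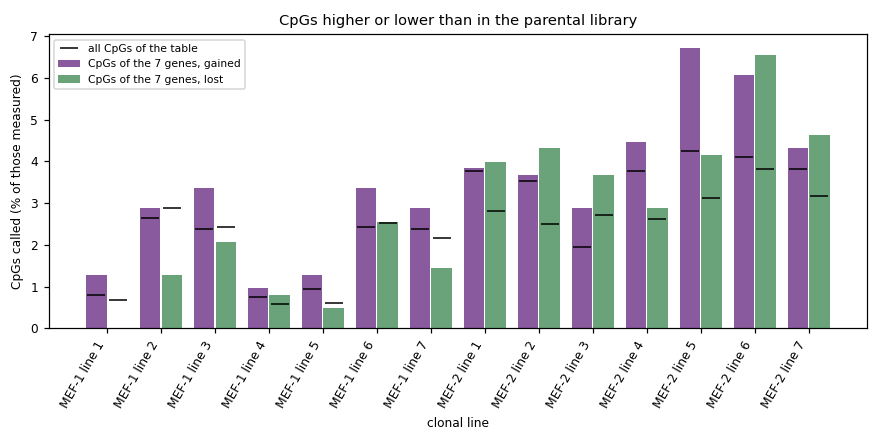
Share (%) of the 626 CpGs of the 7 genes called higher (gained) or lower (lost) than in the parental library by Fisher's exact test, for each of the 14 clonal lines, with a dash for the share over all 1203687 CpGs. MEF-2 line 5 shows the highest share of gains, 6.71%, and MEF-1 lines 1, 4 and 5 show the lowest shares of gains, as they do over all CpGs.

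A gain in a single line was a call higher than the parental library, by 20 points or more, in 1 line. No other line of the family was called higher at that CpG, but uncalled lines could also lie above the parental library. Such gains were found at 47 CpGs for MEF-1 and 102 for MEF-2, 7.51% and 16.3% against 5.79% and 9.22% of all CpGs. In Sox17 22 of 104 CpGs were gained in a single MEF-2 line and 6 in a single MEF-1 line, and in Gata4 38 and 18 of 213. The largest was at chr1:4491724 in the coding part of Sox17 island 3, where MEF-2 line 1 was at 100% on 20 reads, the parental library at 15.8% (95% Wilson interval 5.52% to 37.6%, 19 reads) and the other MEF-2 lines at 0% to 44.4%. In the Foxa3 intron, at chr7:19021565, MEF-2 line 4 was at 84.6% with the other MEF-2 lines at 0% to 13.0%, and at chr14:63268770 in Gata4 island 1, MEF-2 line 5 was at 93.8% with the others at 7.14% to 42.1%. In MEF-1, line 1 was at 100% at chr2:163547343 in a coding exon of Hnf4a. There the parental library stood at 27.8% on 18 reads and the other MEF-1 lines at 35.3% to 73.3%, all above it though not called. MEF-1 line 5 was at 84.0% at chr5:147271473 in the Pdx1 intron, with the other MEF-1 lines at 9.38% to 33.3%. MEF-1 line 7 was at 69.2% at chr2:148045350 in Foxa2, on 13 reads, with the other MEF-1 lines at 0% to 14.3%. At that Foxa2 CpG MEF-2 line 3 stood at 53.3%, at the Pdx1 CpG MEF-2 line 2 at 100%, and at the Hnf4a CpG MEF-2 line 5 at 81.0%. A high level at these CpGs was thus not particular to a single line of the study. MEF-2 line 5 was at 77.4% at chr2:180333728 in Gata5, where the other MEF-2 lines were at 0% to 20% but the MEF-1 lines at 53.8% to 96%. The MEF-1 lines also stood at 35% to 72.2% at the Foxa3 CpG and at 41.7% to 85.7% at the Gata4 CpG. Each of these gains passed Fisher's exact test, with adjusted p from 2.50e-07 in Gata4 to 0.00585 in Foxa2.

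Other regulators of the endoderm were read for comparison at the region that holds the gene start. Of 26 genes listed, 16 had such a region, 6 were higher in MEF-1, 4 higher in MEF-2 and 6 not called, with median levels of 15.4% and 10.9%. Over all genes 29.5% of start regions were called. Among the called, Sox7, a relative of Sox17, stood at 49.4% ± 1.18 and 63.6% ± 1.49, and Onecut1, a liver and pancreas factor, at 18% ± 2.09 and 7.74% ± 1.62. Prox1, a factor of early liver and pancreas, stood at 11.3% ± 3.39 and 4.34% ± 1.90. Of 12 genes that these factors switch on in liver, pancreas and lung, 2 could be read, and both were higher in MEF-1, the albumin gene Alb at 64.2% ± 9.49 against 47.6% ± 8.80 and the glucagon gene Gcg at 85.9% ± 6.59 against 67.4% ± 4.43. The parental libraries differed less, at 62.0% and 64.0% for Alb, on 3 CpGs and in the opposite order, and at 79.4% and 75.6% for Gcg.

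For each gene the protein-coding gene with the most similar mean level over the 16 libraries was sought among 14245 genes, by the root mean square difference. These were Ppp1r11 for Foxa2 (2.57 points), Vax2 for Foxa3 (2.47 points), Paqr9 for Hnf4a (1.75 points), Lats1 for Pdx1 (1.64 points), Tasp1 for Sox17 (1.32 points), Gli1 for Gata4 (1.66 points) and Pdlim7 for Gata5 (4.05 points). The pattern that Foxa2 shared with Ppp1r11 was a MEF-1 clonal mean of 41.7% against 43.1% and a MEF-2 clonal mean of 22.6% against 23.0%.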

How the data were processed

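Target capture bisulfite sequencing libraries were made from 16 cell populations. Per the labels and the study's methods, the authors trimmed reads with Trim Galore 0.6.0, used Bismark for alignment against mm10, removed alignments with a mapping quality under 10 and biased read ends, combined strands and used R 3.6.1. Removal of duplicate reads is not given in the sources used here. The deposited values used are counts of unmethylated and methylated reads per CpG, and the authors' series table covers 1203687 CpGs, each read 10 times or more in every one of the 16 libraries, on 16 chromosomes (12, 18, 19, X and Y were left out). The counts equalled those of the 16 library tables. The other 2 columns per library (coverage and methylation percent) and the authors' fidelity and neighbour columns were not used.

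Libraries held 38485592 to 57348851 methylation calls over these CpGs, where a read counts once at each CpG it covers. Family differences were tested per CpG with a quasi-binomial logistic model (dispersion not below 1) and per region of at least 3 CpGs (islands, and the rest of the upstream flank, gene and downstream flank) with limma 3.58.1 in R 4.3.3, on the 7 and 7 clonal lines. Each line was compared with its single parental library by Fisher's exact test. Benjamini-Hochberg adjustment ran over the whole table, with a threshold of 0.05. Lines are separate single-cell clones, but of 1 embryo per family, so the family tests set a difference against the spread between clones and not between embryos. Fisher p-values compare the read counts of 2 libraries and hold no spread between clones. Relative coverage is the mean coverage within 5 Mb of a gene over that of the median chromosome of the library, divided by the median MEF-2 clonal line. Python 3.11.15, numpy 2.4.6 and scipy 1.17.1 were used, and the tests were tested on simulated data.

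The genes, lists and tests were chosen with earlier results of these data known. Named were all regions of the 7 genes, per gene up to 2 called CpGs with the largest family difference and the largest gain in a single line, up to 4 called genes of each further list with the largest differences at the start, and the most similar gene. A result for 1 gene of the further lists and 1 sequence are not reported here. CpGs named beyond this, in Foxa2 island 2, Sox17 islands 2 and 3, Gata4 island 6 and Gata5 (chr2:180333624), were chosen after their values were seen. Alternatives were minimums of 5 and 20 reads, thinning to 10 reads, pooled reads, stricter islands (500 bp, 55%, 0.65), limma per CpG, a line number block, leaving out MEF-1 lines 1, 4 and 5 or each line in turn, and changes of at least 20 points.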

Additional observations from a re-analysis of the deposited data

Results flagged for a closer look

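A line stood apart from the other 6 lines of its family, by the ratio of its gap to the range, in 6 of 62 region and family groups examined, where chance gives about 5%. In Foxa3 island 1, MEF-2 line 1 was at 13.9% and the other MEF-2 lines at 6.97% to 9.68%. In Foxa3 island 2, MEF-2 line 5 was at 24.1% and the others at 31.8% to 37.5%. In Hnf4a island 2, MEF-1 line 6 was at 87.5% and the others at 91.8% to 94.4%. In the Pdx1 upstream flank, on 4 CpGs, line 6 was apart in both families, at 16.1% against 0% to 6.23% in MEF-1 lines and at 34.3% against 10.4% to 20% in the MEF-2 lines. In Sox17 island 3, MEF-2 line 7 was at 15.0% and the others at 20.2% to 23.7%. In none of the 31 regions did all 7 MEF-1 lines move one way from their parental library and all 7 MEF-2 lines the other way.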

How the results depend on the processing

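Of 593 pairs of a region and an alternative, 550 kept the direction and the side of the threshold, 13 gained a call, 3 lost one and 27 changed direction, over 13 regions. Of the 383 pairs of the 20 called regions 378 kept both. Called CpGs moved from 177 (125 higher in MEF-1, 52 in MEF-2) to 66 (50 and 16) with at least 20 reads, where 179 CpGs were left and 23.2% of all CpGs were called, and to 276 (209 and 67) of 1087 with at least 5 reads, where 18.2% of all were. With at least 20 reads 9 of the 13 regions left were called (46.2% of all regions), and there were 145 gains and 183 losses, against 300 and 243, while the shares over all CpGs and lines rose from 2.68% and 2.33% to 4.13% and 3.92%. Thinned to 10 reads, gains and losses were 0 and 0 for the 7 genes and also 0 over all 16851618 pairs of a CpG and a line, so that this setting says nothing about these genes. Family calls were 146 when thinned, where 16.1% of all CpGs were called. With stricter islands 14 of 24 regions were called, where 46.3% of all regions were. Foxa3 island 2, Hnf4a islands 1 and 2, Pdx1 islands 1 and 2 and Gata4 islands 2, 4, 5 and 7 were then not islands. Leaving out 1 clonal line gave 160 to 178 called CpGs (112 to 127 with the higher level in MEF-1, 45 to 51 with the higher level in MEF-2) and 20 to 22 called regions. In these fits 18.3% to 19.3% of all CpGs and 44.3% to 45.6% of all regions were called. Without MEF-1 lines 1, 4 and 5, 138 CpGs and 20 regions were called (14.1% of all CpGs and 39.0% of all regions). In 4 of the changes of direction a fit had called the region: Gata4 island 5 with at least 5 reads (8.92 points), the Foxa3 gene outside islands with at least 20 reads (-13.52) and with pooled reads (-4.84), and Foxa3 island 1 with stricter islands (-2.90, a different stretch by construction). The other 23 were of regions called in neither fit. With at least 5 reads these were Pdx1 island 1 (-0.074) and Gata5 island 1 (-0.49), with at least 20 reads the Pdx1 gene (-0.56), and with stricter islands the Pdx1 gene (-0.45) and Gata5 island 1 (-0.41). Without MEF-1 lines 1, 4 and 5 they were Pdx1 island 1 (-0.41), Pdx1 downstream (-0.90), Gata4 island 2 (1.89) and Gata5 island 1 (-0.78). Leaving out 1 line gave -0.57 to 2.41 points for Pdx1 island 1, -0.76 to 0.69 for Sox17 island 3, -2.12 to 2.43 for Gata4 island 2 and -0.30 to 2.32 for Gata5 island 1. Apart from Foxa3 island 1, the cause was not tested.

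The line numbers are shared between families but name unrelated clones: deviations of same-numbered lines correlated between -0.0043 and 0.0035 and no line correlated best with its own number. With the replicate block, 20 regions were called, where 44.1% of all regions were. With limma on CpG percentages, 177 CpGs were called without the block and 158 with it (116 and 42 by direction), where 19.6% and 17.5% of all CpGs were. The median of 26 reads per CpG limits single-CpG calls.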
